A study of Mus musculus with 41 samples.

Results

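Transcripts of 10 genes of milk secretion were followed through 41 mouse mammary tumors. The genes encode the caseins Csn1s1, Csn1s2a, Csn2 and Csn3, the whey and milk fat globule proteins Wap, Lalba, Glycam1 and Btn1a1, and the alveolar regulators Elf5 and Prlr. They were taken by symbol from a table of 47480 gene symbols, and all 10 were found. The tumors were 28 Plk2-/-; p53-/- tumors, called Plk2-null here and named PLK2null with a number, and 13 p53-/- tumors, called p53-null and named p53null with a number. All were of the Balb/c strain and lacked p53, and no tumor with p53 was analysed here. The Plk2-null tumors descended from grafts of mammary epithelium lacking both genes. The recipients were wild-type animals of the same strain, so the host cells in these tumors carried Plk2. Tumors of both genotypes had been passed serially as transplants and had grown untreated in syngeneic hosts. Each tumor gave 1 RNA library of the whole tissue. The study classed PLK2null-732, PLK2null-733, PLK2null-743 and p53null-T11 as claudin-low, which leaves 25 other Plk2-null and 12 other p53-null tumors. The age of the animals is not given in the labels.

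In the mammary gland, milk proteins are made by luminal cells that differentiate into secretory alveoli in pregnancy and lactation. Prolactin binds its receptor, the product of Prlr, which acts through the kinase JAK2 on the transcription factor STAT5, and STAT5 binds regulatory sites of milk protein genes. Elf5, an ETS family transcription factor of luminal progenitors, is required for alveolar development. Caseins assemble into micelles with the product of Csn3, kappa-casein, at their surface, and alpha-lactalbumin, the product of Lalba, is the regulatory subunit of lactose synthase.

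The 4 casein genes lie in 1 cluster on chromosome 5 of GRCm38 in the GENCODE vM21 annotation, Csn1s1 at chr5:87666208-87682578, Csn2 on the minus strand at chr5:87692624-87699630, Csn1s2a at chr5:87774567-87788797 and Csn3 at chr5:87925579-87932665. Wap lies at chr11:6635482-6638637, Btn1a1 at chr13:23456992-23465901 and Elf5 at chr2:103411688-103450989. Chromosome 15 holds Prlr at chr15:10177238-10349180, Lalba at chr15:98480400-98482721 and Glycam1 at chr15:103562759-103565081. RefSeq promoter sequences on GRCm38.p6 matched 8 of the 10 genes, with Csn3 and Btn1a1 unmatched. In the 250 bases before the start, the letters TTCNNNGAA, the core that STAT5 binds, were searched on both strands, where they read alike. They occurred for 4 of the 8 genes (Csn1s1, Csn2, Glycam1 and 1 of the 3 Prlr starts) and in 7.02% of 32851 promoters in the RefSeq table. The letters AGGAAG, an ETS type site, occurred on either strand for 4 of the 8 genes (Wap, Lalba, Glycam1 and 2 of the 3 Prlr starts) and in 29.5% of promoters. Of these windows that of Glycam1 was the 1 with both, and the matches did not overlap. A match describes the letters only. Csn1s1, Csn2 and Csn1s2a are printed because their transcripts moved most closely together across tumors, and Glycam1 because it holds the same core. Each sequence runs 5′ to 3′ to the base before the start, with TTCNNNGAA in capitals, from chr5:87665958-87666207 (plus strand), chr5:87699426-87699675 (minus), chr5:87774200-87774449 (plus) and chr15:103565082-103565331 (minus).
Csn1s1: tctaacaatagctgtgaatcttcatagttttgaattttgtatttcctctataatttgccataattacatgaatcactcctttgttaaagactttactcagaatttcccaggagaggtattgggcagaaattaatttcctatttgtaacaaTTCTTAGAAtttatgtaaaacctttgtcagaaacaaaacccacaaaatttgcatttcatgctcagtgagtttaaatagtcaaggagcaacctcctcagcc
Csn2: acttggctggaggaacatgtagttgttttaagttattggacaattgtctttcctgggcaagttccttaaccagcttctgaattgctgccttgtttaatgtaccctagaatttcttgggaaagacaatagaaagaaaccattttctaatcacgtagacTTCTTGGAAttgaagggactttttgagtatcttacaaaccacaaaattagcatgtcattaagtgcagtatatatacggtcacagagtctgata
Csn1s2a: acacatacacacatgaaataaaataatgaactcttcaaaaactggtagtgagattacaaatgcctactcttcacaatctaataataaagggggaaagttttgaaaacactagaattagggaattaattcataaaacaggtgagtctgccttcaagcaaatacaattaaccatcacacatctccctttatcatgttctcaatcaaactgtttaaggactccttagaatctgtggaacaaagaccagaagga
Glycam1: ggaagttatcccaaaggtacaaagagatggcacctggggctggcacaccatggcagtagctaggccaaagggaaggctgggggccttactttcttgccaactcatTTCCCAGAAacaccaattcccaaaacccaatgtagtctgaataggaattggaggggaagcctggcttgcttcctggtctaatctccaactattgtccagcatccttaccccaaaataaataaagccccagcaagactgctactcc
The RefSeq starts of Csn2 and Csn1s2a differ from the ends of the GENCODE genes above. The core began 100 bases before the Csn1s1 start, 93 bases before the Csn2 start and 145 bases before the Glycam1 start, and it was not among these letters of Csn1s2a.

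Values are read counts per gene scaled tumor by tumor, and nonzero genes have their upper quartile at 1000 in each. From the step on which low values lie, the libraries held 29409609 to 70868125 fragments on genes, and 1 read was worth 0.388 to 0.817. The floor of detection was taken as 3 reads, 1.16 to 2.45 in these units, and covers counting error only. Plk2, the check of the labels, was at 36.6 to 553 in Plk2-null tumors (median, 284) and at 186 to 8028 in p53-null tumors (median, 3402). The library labelled p53null-7435 gave the lowest p53-null value, inside the Plk2-null range. PLK2null-7763 stood apart from the other 24 Plk2-null tumors outside the claudin-low class in its endothelial markers (sum over 6 genes, 78025, with a median of 4877 in the 25), and its luminal epithelium markers summed to 18699, the lowest of the 25. In whole-tissue RNA, fewer cells of a type and less RNA per cell cannot be told apart.

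The 10 transcripts together were a small part of each library. They held 0.0201 to 0.906% of all values in the other Plk2-null tumors (median, 0.105%) and 0.00242 to 2.35% in the other p53-null tumors (median, 0.0422%). Between 8 and 10 of the 10 genes passed the floor in each of the other Plk2-null tumors. Among the 37 tumors outside the claudin-low class, 8 of the 10 genes each varied more than at least 95.9% of the 17080 genes with a mean of at least 10. The SD of log2(value + 1) was 3.72 for Csn1s2a, 3.70 for Csn2, 3.46 for Lalba and 3.42 for Csn3, against a median of 0.71 over all genes. The regulators varied less, with an SD of 1.70 for Prlr and 1.03 for Elf5.

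**Figure D1:**
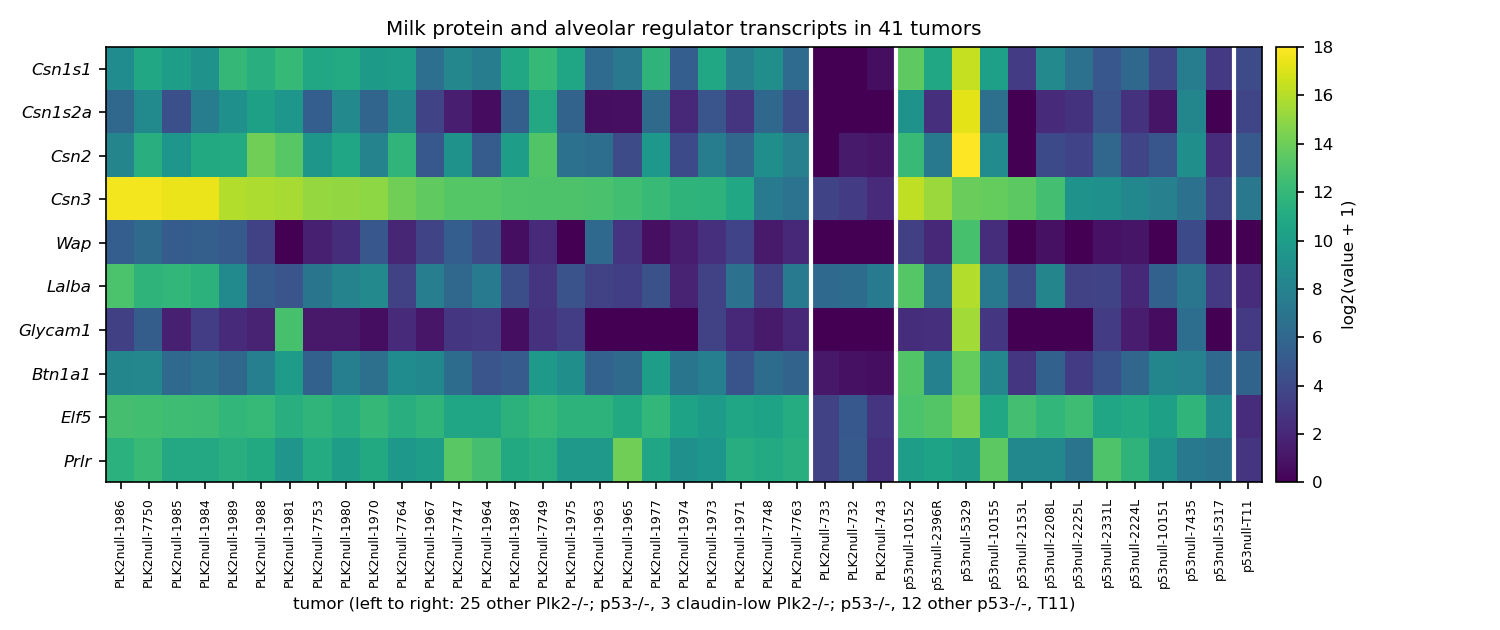
Level of each transcript in every tumor, as log2(value + 1), with genes in rows and tumors in columns. White lines separate the 25 other Plk2-null tumors, the 3 claudin-low Plk2-null tumors, the 12 other p53-null tumors and T11, and within a block tumors are ordered by Csn3. The bright column of p53null-5329 spans most milk proteins, the 4 leftmost tumors are bright in Csn3 and Lalba, and the 3 claudin-low Plk2-null columns are dark in all rows but Lalba.

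Csn3 was the most abundant of the 10 transcripts in most tumors. Per kilobase of transcript, its level led in 19 of the 25 other Plk2-null tumors and in 5 of the 12 other p53-null tumors. In the other Plk2-null tumors the median level per kilobase was 7930 for Csn3, and those of the regulators Elf5 and Prlr were 1969 and 1640. Csn1s1 (800.1) and Csn2 (681) followed, and then Lalba (81.2), Csn1s2a (60.3), Btn1a1 (48.8), Wap (9.98) and Glycam1 (4.97). Csn3 exceeded Elf5 in 23 of these 25 tumors and their interquartile ranges were apart, whereas each later pair of neighbours had overlapping interquartile ranges. In the other p53-null tumors Csn3 (median level per kilobase, 2754) and Elf5 (2339) were not separated, and Csn3 was the higher in 5 of 12. Elf5 led in 4 of the other p53-null tumors and in none of the 25, and Prlr led in 5 of the other Plk2-null and 2 of the other p53-null tumors. Lengths were medians over annotated coding transcripts, and for Prlr these run from a median of 1190 to 9900 bases, so its rank depends on the isoform.

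**Figure D2:**
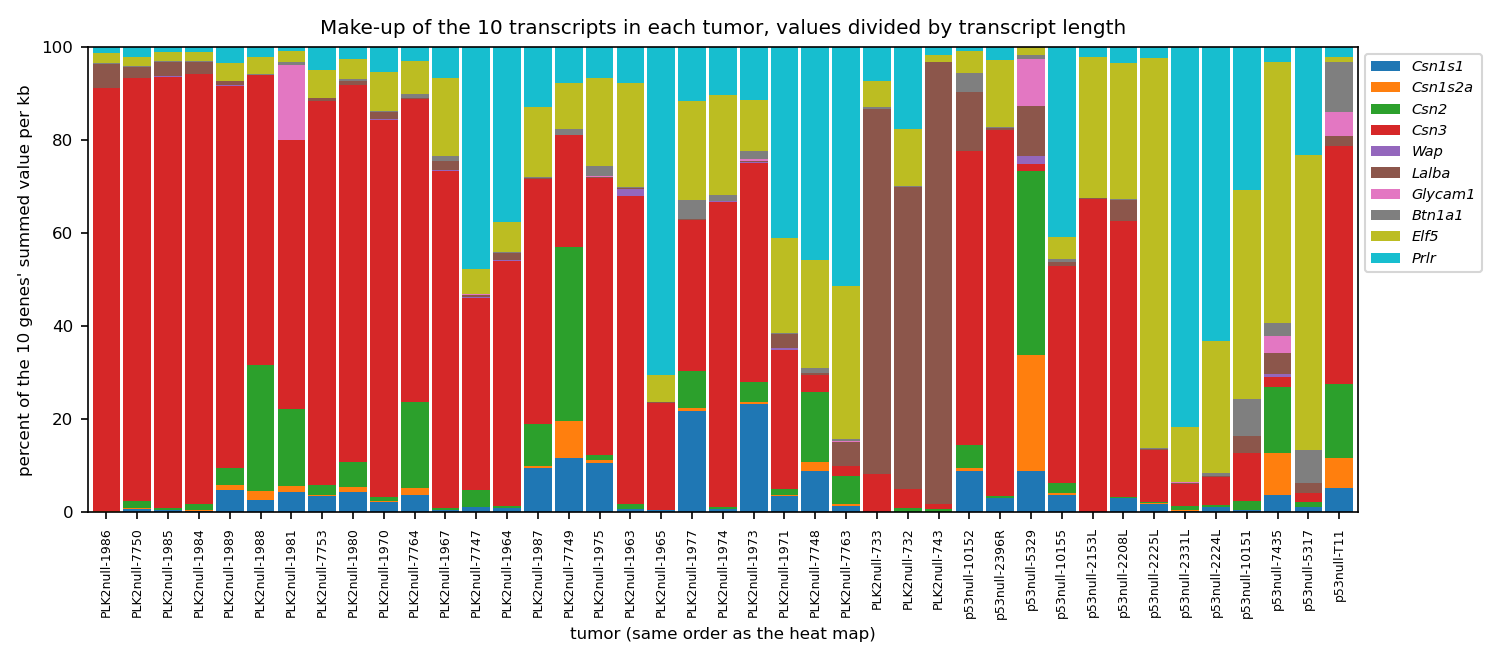
Make-up of the 10 transcripts in each of the 41 tumors. Each bar is 1 tumor, the vertical axis is the percent of the 10 genes' summed value per kilobase of transcript, and colors are genes. Csn3 fills 90.7 to 92.6% of the 4 leftmost bars, Csn2 and Csn1s2a fill 39.5% and 24.9% of p53null-5329, and Lalba fills 65.1 to 94.8% of the 3 claudin-low Plk2-null tumors.

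Milk transcripts were most abundant in p53null-5329. It held the highest value of the 41 tumors for 8 of the 10 genes, while Csn3 and Prlr were higher elsewhere. Over all genes with a mean of at least 10, it was the highest for 3.11%. Csn2, beta-casein, was at 257509 in p53null-5329 and at most 17213 in the other 40 tumors, in PLK2null-1988. Csn1s2a, an alpha-S2-like casein, was at 157125, against at most 1836 elsewhere, in PLK2null-7749. Csn1s1, alpha-S1-casein, was at 89212, and the next tumor, p53null-10152, was at 12052. All 3 of these caseins stood several times above every other tumor.

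The whey and globule proteins of p53null-5329 went the same way. Wap, whey acidic protein, was at 6837, and its next value in any tumor was 72.2, in PLK2null-7750. Lalba was at 60797 against a next value of 9783 in p53null-10152. Glycam1, a mucin-like glycoprotein of milk that is also made by lymph node vessels, was at 46354 and next at 7028 in PLK2null-1981. In PLK2null-1981 the B cell markers summed to 6422, the highest of 41. The lymph node vessel markers other than Glycam1 summed to 3648 there, with a median of 72.8 in the 25 other Plk2-null tumors. Wap was at 0, Lalba at 26.5 and Csn2 at 10247 in that tumor, and the source of its Glycam1 was not tested. Btn1a1, butyrophilin of the milk fat globule membrane, was at 14012 in p53null-5329 and at 8910 in p53null-10152. Elf5 was at 19955, and the next tumor, p53null-2396R, was at 9097. Csn3, in contrast, was at 15056 in p53null-5329, below 11 of the Plk2-null tumors, and Prlr was at 925. Of the 19 measured genes of milk lipid and globule synthesis, p53null-5329 was the highest of 41 for 6, among them Mfge8 (334501, next 62852), a globule protein, Thrsp (38490, next 2987), a regulator of lipid synthesis, and Xdh (15666, next 10341), a globule protein as well. Ltf, lactoferrin, was at 394157 and next at 14442. The examples from these lists were chosen after their values were known. Among marker lists, the sum over 6 basal keratin and basal epithelium genes was 158708 in p53null-5329, the highest of 41, with Krt14 at 80243, and that over 8 luminal epithelium genes was 91841, inside the range of the other 12 p53-null tumors (33823 to 332111). The sum over 6 salivary gland genes was 3537 (next of 41, 3146), of which Dcpp1 was 3438, with Bpifa2 and Muc19 at 0. That over 7 adipocyte genes was 2011, within the range of the other p53-null tumors. The part of these cell types in the values was not tested.

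In the library labelled p53null-7435, 6 milk genes stood in nearly the same proportions as in p53null-5329, at a lower level. Csn1s1 was 459 times, Csn1s2a 516 times, Csn2 518 times, Wap 451 times, Lalba 449 times and Glycam1 524 times as high in p53null-5329 as in p53null-7435. The highest of these 6 ratios was 1.17 times the lowest. In the other 12 tumors in which all 6 genes passed the floor, the same spread was at least 40.03 times, the value of PLK2null-7763. Outside these 6 genes the ratio was 145 for Csn3, 56.9 for Btn1a1, 5.69 for Elf5 and 6.04 for Prlr. The titles number the libraries 17 and 18 in 1 series of names. The choice of these 6 genes followed from their values, and whether 1 library holds a part of the other was not tested. In p53null-7435 itself Csn2 was at 497, Csn1s2a at 304, Csn1s1 at 194, Lalba at 135, Glycam1 at 88.5 and Wap at 15.1.

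Csn3 had its own pattern. In the other Plk2-null tumors it ran from 116 in PLK2null-7763 over a median of 9976 to 213851 in PLK2null-1986. In the other p53-null tumors it ran from 10.9 in p53null-5317 over 3464 to 79602 in p53null-10152. The 4 tumors PLK2null-7750, PLK2null-1984, PLK2null-1985 and PLK2null-1986 held the highest values of all 41, 180015 to 213851, and the next Plk2-null tumor was at 63497. These 4 were chosen by Csn3, so their other genes are given as a description. Lalba was at 3068 to 7622 in the 4 and at 2.34 to 396 in the other 21, and Elf5 at 5168 to 6541 against 930.0 to 4210, in both cases without overlap. Csn2 was at 298 to 2440 in the 4 and at 15.2 to 17213 in the other 21, and Csn1s1, Csn1s2a, Wap, Glycam1, Btn1a1 and Prlr overlapped as well. The 4 tumors were alike over all genes, with Pearson correlations of 0.97 to 0.99 among them and of 0.82 to 0.93 with the other 21. The labels do not say whether they came from 1 tumor, and each is counted as 1 sample here.

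The proportion of Csn3 to Csn2 spanned a wide range. Where Csn2 passed the floor, the ratio of the values ran from 0.356 to 716 in the other Plk2-null tumors (median, 31.1; highest in PLK2null-1986) and from 0.0585 in p53null-5329 to 407 in p53-null tumors. In p53null-2153L Csn3 was at 11157 with Csn2 at 0. Csn2 exceeded Csn3 in 5 tumors of the 37 outside the claudin-low class.

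**Figure D3:**
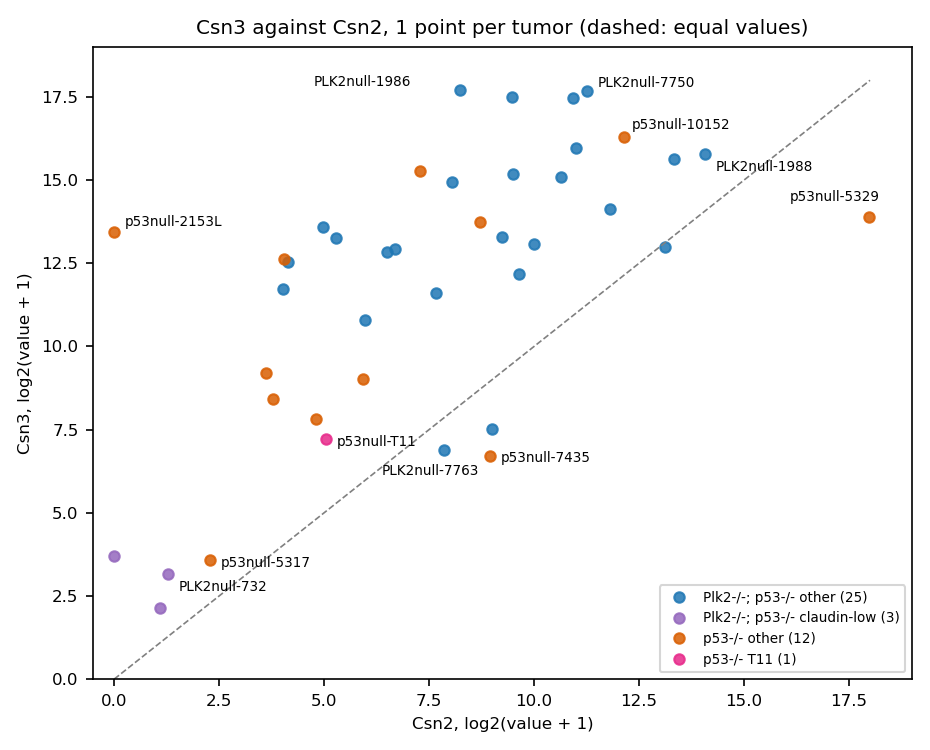
Csn3 against Csn2 in the 41 tumors, both as log2(value + 1), with 1 point per tumor colored by genotype and class and a dashed line where the values are equal. Most tumors lie above the line, PLK2null-1986 and PLK2null-7750 lie highest, and p53null-5329 lies far to the right and below the line.

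Csn1s1, Csn1s2a and Csn2 ranked the tumors much alike. Over the 41 tumors Spearman's rho was 0.90 between Csn1s2a and Csn2, 0.89 between Csn1s1 and Csn2 and 0.84 between Csn1s1 and Csn1s2a. The same 3 values were 0.88, 0.82 and 0.82 within the 25 other Plk2-null tumors and 0.87, 0.82 and 0.75 within the 12 other p53-null tumors. Csn3 was less close to Csn2, at 0.67 over 41 tumors, 0.55 within the Plk2-null and 0.46 within the p53-null tumors. With Csn1s1 the values of Csn3 were 0.70, 0.40 and 0.76 in the same 3 sets. Csn3 was closer to Elf5 than to Csn2, at 0.73, 0.75 and 0.79. The values with Elf5 were near those with Csn1s1 except within the Plk2-null tumors. Csn3 was also closer to Lalba than to Csn2 within the 25 Plk2-null tumors, at 0.70. The whey genes followed Csn2 in the p53-null tumors, at 0.90 for Wap, 0.86 for Glycam1 and 0.78 for Lalba, or 0.87, 0.81 and 0.71 without p53null-5329. Within the Plk2-null tumors the values were -0.06, 0.35 and 0.19. Wap passed the floor in 5 of these 12 p53-null and 18 of the 25 Plk2-null tumors, and Glycam1 in 6 and 13. Ranks among the remaining values, at 3 reads or fewer, are poorly resolved, so these values for Wap and Glycam1 are limited by depth. Lalba passed the floor in all of these tumors. Prlr did not rank with Elf5 in either genotype (0.14 and -0.01). These are descriptions over tumors whose shared lineage the labels do not give.

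Of 14715 named genes, those whose ranks were most like Csn3 over 41 tumors were Ogfrl1 (rho, 0.83), Eci3 (0.79), Naaladl2 (0.78), Marveld3 (0.78) and Galnt3 (0.78). Elf5 was the 24th and Csn1s1 the 40th in that order. Those most like Elf5 were Mfsd6 (0.85), Abhd14b (0.84), Ogfrl1 (0.82), Rbm47 (0.80) and Proser2 (0.79), and Csn3 was the 22nd. All tumors were used, so the low values of the claudin-low tumors contribute to each. Within the 25 other Plk2-null tumors rho was 0.85 for Ogfrl1 with Csn3 and 0.92 for Mfsd6 with Elf5.

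The first question is whether the milk transcripts differ between genotypes. In all 28 Plk2-null and 13 p53-null tumors none of the 10 genes passed the test, whereas 39.5% of 17208 genes did, 24.3% higher and 15.3% lower in Plk2-null tumors (limma, Benjamini-Hochberg adjusted p below 0.05). None had an unadjusted p below 0.05 either, in limma or in a permutation test with 100000 resamples. Genotype cannot be told apart from the library series, since every p53-null title carries a series name that no Plk2-null title carries. Rescaling by trimmed means of M values (TMM) turned the split of all calls from 4175 higher and 2627 lower to 3082 and 3870, and moved the median difference of all genes from 0.0965 to -0.0669, so small differences depend on the scaling. The median difference of the 10 genes was 0.48.

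Csn3 gave the largest difference of the 10. Its mean log2(value + 1) was 12.54 ± 4.28 (SD, n = 28) in Plk2-null and 10.55 ± 3.87 (SD, n = 13) in p53-null tumors, a difference of 1.99 (SE, 1.36; adjusted p = 0.252 in limma). Csn2 differed by 1.52 (SE, 1.31; adjusted p = 0.376), with medians of 403 and 32.0 and values of 0 to 17213 and 0 to 257509. Prlr differed by 1.03 (SE, 0.88; adjusted p = 0.366) and Csn1s1 by 0.86 (SE, 1.21; adjusted p = 0.606). The groups overlapped for every gene. Glycam1 (-0.85), Btn1a1 (-0.70) and Elf5 (-0.35) had lower means in Plk2-null tumors, with standard errors of 1.03, 0.91 and 0.88, while Wap (0.68; SE, 0.85), Csn1s2a (0.28; SE, 1.26) and Lalba (0.06; SE, 1.11) had higher ones. A value on this scale understates differences of low genes such as Wap and Glycam1, which were at or below the floor in 10 and 15 of the 28 Plk2-null tumors and in 8 and 6 of the 13 p53-null tumors.

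Among the tumors outside the claudin-low class, Csn3 (kappa-casein) had a higher mean in Plk2-null tumors, where genotype and library series cannot be told apart. Csn3 was the 1 gene of 10 that passed, with 42.4% of 17080 genes called, 4274 higher and 2970 lower (3258 and 4166 after TMM rescaling). Its mean log2(value + 1) was 13.69 ± 2.79 (SD, n = 25) against 10.83 ± 3.91 (SD, n = 12), a difference of 2.86 (SE, 1.09; adjusted p = 0.0319 in limma; permutation p = 0.0151 before adjustment and 0.151 after adjustment over the 10 genes). The 1 of 10 genes called is a smaller share than among all genes. The 4 tumors with the highest Csn3, alike over all genes, counted as 4 of the 25 samples. The call rests on single libraries: when each of the 37 tumors was left out in turn, Csn3 passed in 31 fits and failed in 6, with adjusted p from 0.0128 to 0.0881. Those 6 left out p53null-10151, p53null-2224L, p53null-2225L, p53null-2331L, p53null-5317 or p53null-7435. With the 7 tumors that carry primary tumor numbers (PLK2null-7747, PLK2null-7748, PLK2null-7749, PLK2null-7750, PLK2null-7753, PLK2null-7763 and PLK2null-7764) in place of the 25, the difference was 1.69 (SE, 1.76; adjusted p = 0.550), and none of the 10 genes passed, while 18.6% of all genes did.

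The calls for beta-casein, alpha-S1-casein and whey acidic protein depended on p53null-5329. With all 37 tumors, Csn2 differed by 2.27 (SE, 1.22; adjusted p = 0.134), Csn1s1 by 1.56 (SE, 0.99; adjusted p = 0.207) and Wap by 0.84 (SE, 0.88; adjusted p = 0.460), and none of these passed. Without p53null-5329 the differences were 3.30 (adjusted p = 0.0119), 2.34 (adjusted p = 0.0314) and 1.79 (adjusted p = 0.0232), and with Csn3 (3.14; adjusted p = 0.0229) 4 of the 10 genes were higher in Plk2-null tumors, with 41.8% of genes called (25.1% higher and 16.7% lower). The 4 of 10 genes called is near the share of all genes called. Without p53null-7435 none passed, with 42.3% of genes called. Without both, Csn2 (3.63; adjusted p = 0.00735), Wap (2.06; adjusted p = 0.0104) and Csn1s1 (2.39; adjusted p = 0.0363) passed and Csn3 (2.75; adjusted p = 0.0513) did not, with 41.7% of genes called (25.9% higher and 15.9% lower). The regulators did not pass in these fits, and Elf5 was nearly level, with a difference of -0.25 (SE, 0.36; adjusted p = 0.605) in the 37 tumors. Prlr differed by 1.28 (SE, 0.55; adjusted p = 0.0596), and passed when PLK2null-1974, p53null-10155, p53null-2224L or p53null-2331L was left out. In the fits without p53null-5329, Wap reached the mean of 10 required for testing only through the Plk2-null tumors. Its mean was 17.9 in the 25. In the 12 p53-null tumors other than p53null-5329, T11 included, it was 2.93, with 8 at or below the floor. The calls of Wap in these fits are a description only.

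**Figure D4:**
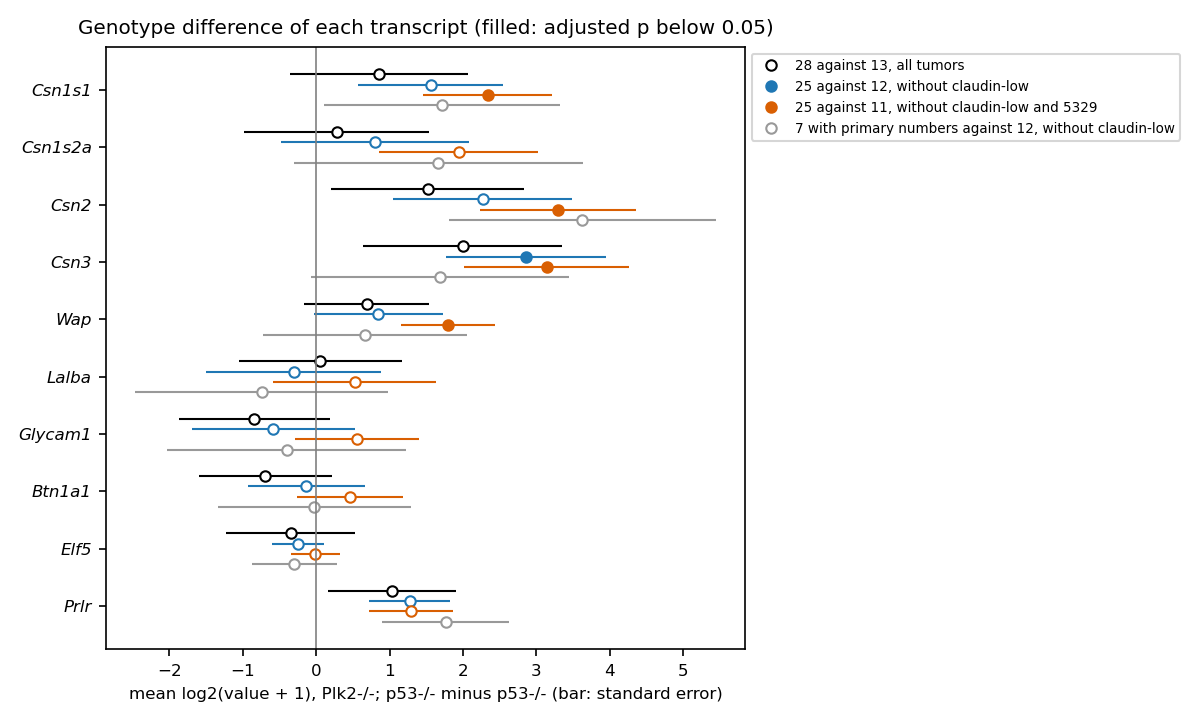
Difference of each transcript between genotypes, as mean log2(value + 1) in Plk2-null minus p53-null tumors, with bars of 1 standard error. Colors stand for 4 sets of tumors and filled points for an adjusted p below 0.05. Csn3 is filled without the claudin-low tumors, and Csn1s1, Csn2, Csn3 and Wap are filled when p53null-5329 is left out as well. In the latter set Wap reached the mean of 10 required for testing only through the Plk2-null tumors.

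By tumor, the regulators spread as follows outside the claudin-low class. Prlr ran from 513 over a median of 1952 to 17376 in PLK2null-1965 in Plk2-null tumors and from 119 over 773 to 11191 in p53null-10155 in p53-null tumors. High values came from single tumors of both genotypes, with PLK2null-7747 at 10927, p53null-2331L at 8413 and PLK2null-1964 at 6554. Elf5 ran from 930.0 over 3137 to 6541 and from 444 over 3726 to 19955, and the groups overlapped almost fully.

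Genes around the members were taken from lists of prolactin signalling, alveolar transcription factors, milk lipid and globule synthesis, whey proteins, lactose and ion transport, the neighbours of the casein genes and the butyrophilin family. Over all 41 tumors 7 of 79 measured list genes were higher and 4 lower in Plk2-null tumors, smaller shares than the 24.3% and 15.3% of all 17208 genes that were higher and lower. Wnt4, a secreted signal that acts downstream of progesterone in side branching, fell by 2.86 on the log2 scale (SE, 0.69; adjusted p = 0.000955 in limma), with medians of 70.6 and 702 in the 25 and 12 tumors outside the claudin-low class. Of 15 prolactin signalling genes, Wnt4 was the 1 lower gene, and Socs2 (1.48; adjusted p = 0.0220), a feedback inhibitor of the pathway, and Stat5b (0.59; adjusted p = 0.0160) were higher. Stat5a (0.21; adjusted p = 0.674) and Jak2 (0.17; adjusted p = 0.436) did not pass. Of 13 transcription factors, the glucocorticoid receptor gene Nr3c1 (0.66; adjusted p = 0.000150) and Notch1 (0.55; adjusted p = 0.0225) were higher and Tfcp2l1 (-1.92; adjusted p = 0.0112) was lower. Outside the claudin-low class neither Stat5b (0.50; adjusted p = 0.0554 in limma) nor Notch1 (0.44; adjusted p = 0.0679) passed, and the transcription factor gene Elf3 (-1.03; adjusted p = 0.00772) was lower.

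In the lipid list 1 of 19 genes was higher and 1 lower, Acaca (0.57; adjusted p = 0.0211), the rate-limiting enzyme of fatty acid synthesis, and Slc27a4 (-0.52; adjusted p = 0.00277), a fatty acid transporter. In the lactose and ion list of 10 these were Pgm1 (0.79; adjusted p = 0.00500), a phosphoglucomutase, and Slc35a2 (-0.29; adjusted p = 0.0217), the transporter of UDP-galactose. None of 15 whey and secretory genes passed, with 3 at an unadjusted p below 0.05, and neither did the 2 butyrophilin family genes. Outside the claudin-low class 5 of these 15 whey and secretory genes passed in limma, a smaller share than the 42.4% of all 17080 genes. Of the 5, Lcn2 (1.397; adjusted p = 0.0351), an iron-siderophore binding protein, and Slpi (1.73; adjusted p = 0.0422), a protease inhibitor, were higher. Wfdc18 (-1.99; adjusted p = 0.00947), Rnase4 (-0.62; adjusted p = 0.0413) and Cel (-1.84; adjusted p = 0.0448) were lower there, and in the lipid list Scd1 (0.86; adjusted p = 0.0342) and Cidea (-1.33; adjusted p = 0.0141) passed as well. Cel did not reach a mean of 10 over the 28 Plk2-null tumors and entered the test through the p53-null tumors. It was at most 42.5 in the 25, against 1583 in p53null-10152 and 1363 in p53null-5329. The call of Cel is a description only. Of 5 tested neighbours of the casein genes, Odam, which lies between Csn1s2b and Csn3, was higher (1.99; SE, 0.73; adjusted p = 0.0271). Its values were low, with a median of 9.71 in Plk2-null and 1.20 in p53-null tumors (at or below the floor in 9 of 28 and 7 of 13), and its highest value was 2198 in PLK2null-1963. Odam reached the mean of 10 required for testing in the Plk2-null tumors, the group in which it was called higher. Among the p53-null tumors p53null-5329, at 2.92, ranked 3rd of 13. The call of Odam is a description only. Another neighbour, Smr3a, reached 4140 in PLK2null-1964, where Csn2 was at 37.6. Csn1s2b, a close copy of Csn1s2a that could share reads with it, was at 579 in p53null-5329 and at most 11.4 in the other 40 tumors.

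The second question is how the claudin-low tumors stand. The study drew that class by clustering the expression of these tumors, so the following is a description with no test. In the 3 claudin-low Plk2-null tumors 7 of the 10 genes lay below all 25 other Plk2-null tumors and none lay above, whereas over 17153 genes 8.87% lay below and 11.1% above. The median difference of the 10 genes was -6.77, or -6.37 with the 6 genes at or below the floor set to it, against 0.02 over all genes. The median was -7.51 for the 4 caseins, -7.49 for the 2 regulators and -1.07 for the 4 whey and globule genes, each with floor values set to the floor. The last value does not measure a difference by role, since the medians of the 25 were 2.56 times the floor for Wap and 1.45 times for Glycam1. Of the other genes in that list, Btn1a1 differed by -6.31 and Lalba by 0.20.

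The casein transcripts were all but missing in these 3 tumors. Csn3 was at 7.88 in PLK2null-732, 11.98 in PLK2null-733 and 3.39 in PLK2null-743, and at 116 or more in the other 25. Csn1s1 was at 0, 0 and 0.565, which is at or below the floor in all 3, and the median of the other 25, 1087, was at least 506-fold higher. Csn2 was at 1.43, 0 and 1.13, with the median of the others, 603, at least 281-fold higher. Csn1s2a was at 0 in all 3, and the median of the others, 51.7, was at least 24.1-fold higher, although 4 of the 25 were themselves at or below the floor. Bounds use the highest floor of the 3 libraries, 2.15. Btn1a1 was at 0.716, 1.20 and 0.565, at least 51.1-fold below the median of 110.

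The regulators lay below every other Plk2-null tumor as well. Elf5 was at 30.8, 10.2 and 5.65 in the 3 tumors and at 930.0 or more in the 25, and Prlr was at 33.7, 10.2 and 4.52 against 513 or more. The medians of the 25 were 308 and 192 times those of the 3. Wap and Glycam1 were at 0 in all 3, and 7 and 12 of the 25 were at or below the floor too, so these genes did not separate the groups. Lalba was the exception. It was at 80.2 in PLK2null-732, 70.1 in PLK2null-733 and 168 in PLK2null-743, above the median of the other 25 (62.6) and inside their range of 2.34 to 7622. It led the 10 genes per kilobase in each of the 3 tumors.

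Markers of other cells moved with the class in the 3 Plk2-null tumors. All 6 endothelial markers were above the other 25 (sum, 165585 to 186496 against 2572 to 78025, the highest being PLK2null-7763), and 7 of 8 luminal epithelium markers were below them (sum, 74.5 to 433 against 18699 to 127447). Of 6 lymph node vessel genes other than Glycam1, Madcam1 and Ccl21a lay above all 25 (sum, 58056 to 107352 against 10.9 to 48882), while Glycam1 itself was at 0. Ccl21a has near-identical copies that could share its reads. Of 7 adipocyte markers Fabp4 lay above, and it made up nearly all of the sum of the list (99140 to 124755 against 227 to 52242). Basal epithelium and hormone-sensing luminal markers lay below for 2 of 6 genes each, and no gene of the lists for luminal progenitors, B cells, T cells, fibroblasts, macrophages, skeletal muscle or salivary gland lay outside the 25. The B cell sums were 839 to 1131 in the 3, with a median of 27.5 in the 25 (highest, 6422, in PLK2null-1981). The T cell sums were 1042 to 2036 in the 3, with a median of 187 in the 25 (highest, 1928, in PLK2null-1981). For luminal progenitors, fibroblasts, macrophages, skeletal muscle and salivary gland the sums stayed inside the range of the 25. PLK2null-7763, whose endothelial, vessel and adipocyte sums were the highest of the 25, had the lowest luminal epithelium sum of them, 18699. Its Csn3 was the lowest of the 25, at 116 (median of the 25, 9976), and its Csn1s1 was at 77.3 (median, 1087). In the same tumor Csn2 was at 231 (median, 603) and Elf5 at 2281 (median, 3137). Prlr, at 2661 (median, 1952), and Lalba, at 173 (median, 62.6), were above the medians there. Without PLK2null-7763 the same 7 genes lay below. The part of cell composition in the values of the milk genes was not tested.

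**Figure D5:**
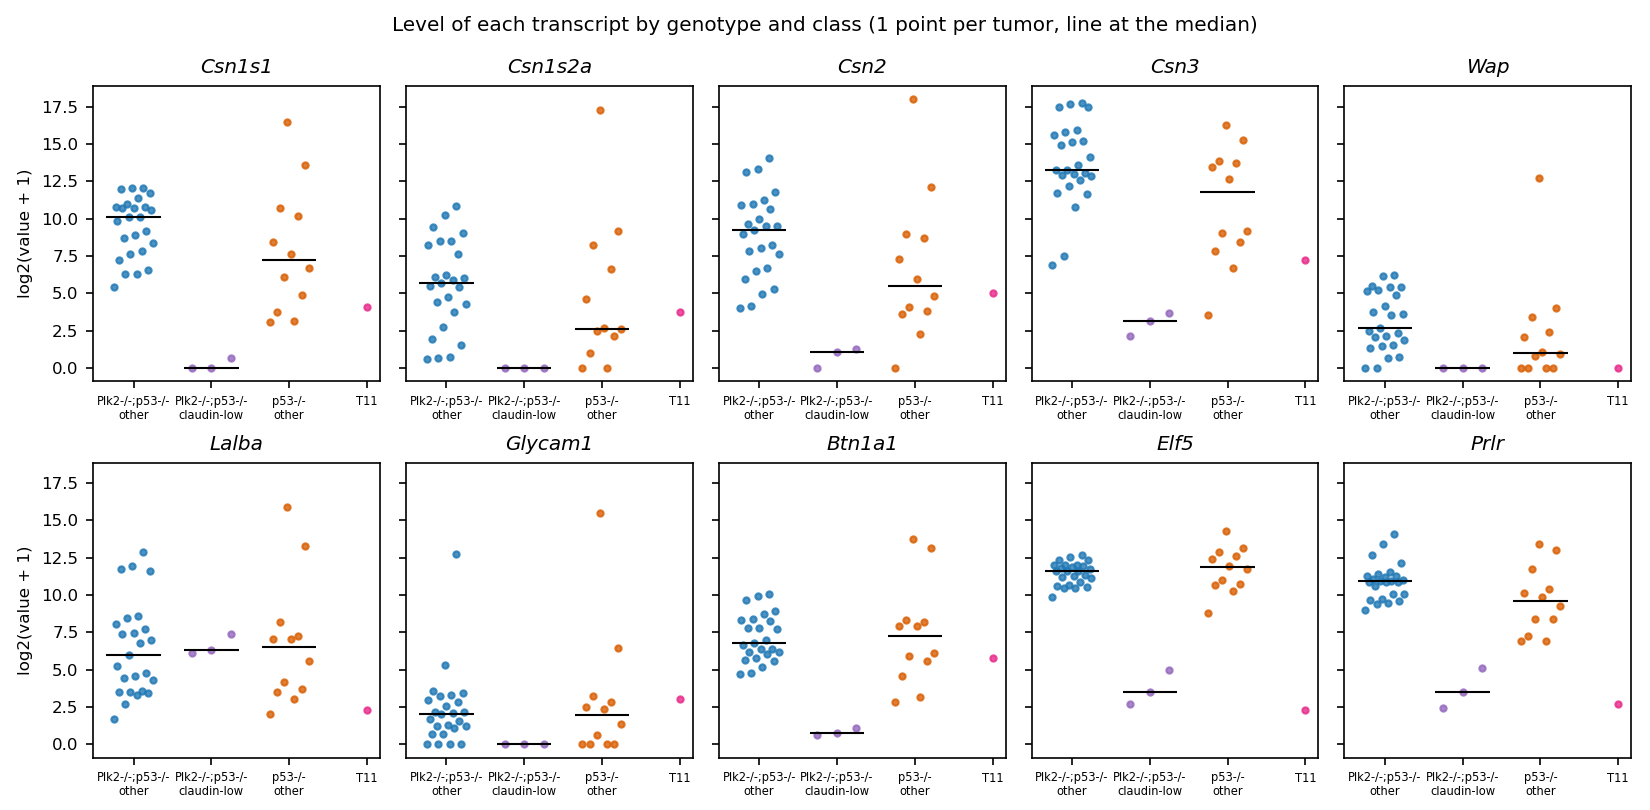
Level of each transcript by genotype and class, as log2(value + 1), with 1 point per tumor and a line at the group's median. Elf5, Prlr, Csn3 and Btn1a1 of the 3 claudin-low Plk2-null tumors lie below all others of their genotype, Lalba lies within the range, and the highest p53-null point in 8 panels is p53null-5329.

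The claudin-low p53-null tumor T11 shared the regulators' low values and not those of the caseins. Elf5 was at 3.90 and Prlr at 5.63 in T11, below the other 12 p53-null tumors, in which the lowest values were 444 and 119. T11 was the lowest of 13 for 17.6% and the highest for 12.6% of 16666 genes. Csn3 was at 147, Csn2 at 32.0, Csn1s1 at 16.01, Csn1s2a at 12.6, Glycam1 at 7.36 and Btn1a1 at 55.4, all above the floor of 1.30 and inside the range of the other 12. Wap was at 0, as it was in 4 of the other 12 tumors, and Lalba, at 3.90, was the second lowest of 13. The luminal epithelium markers summed to 33823 in T11 and to at least 75894 in the other 12, with Krt8 at 11057, Krt18 at 22508 and Epcam at 81.4 in T11. Endothelial markers summed to 6876 in T11, inside the range of the other 12 (2041 to 16463). The lymph node vessel (16.9), T cell (39.8) and adipocyte (426) sums of T11 lay below the other 12 (lowest, 17.5, 84.9 and 455). T11 is 1 tumor with no replicate.

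Over 17153 genes, 8.87% lay below and 11.1% above all 25 others in the 3 claudin-low Plk2-null tumors. Among the surrounding lists, 8 of 13 alveolar transcription factors lay below all 25 others in these 3 tumors and none above (median difference, -3.49). These included the epithelial factors Elf3 (-9.03), Ehf (-7.97), Tfap2c (-7.29) and Foxa1 (-6.22). Ehf, an ETS factor like Elf5, was at 21.5, 33.6 and 13.6 in the 3 tumors and at 453 or more in the 25. Of 14 whey and secretory genes, 7 lay below (median, -5.16), with Wfdc18 (-10.42), Wfdc2 (-9.80), Lcn2 (-8.82) and Ltf (-7.46) the largest. Of 19 lipid and globule genes, 9 lay below and 1 above (median, -1.40). Muc15 (-7.65), Muc1 (-5.67) and Folr1 (-4.996) were below, and Fabp4 (7.05), which is also a gene of fat cells and of vessel walls, was above, at 99093 to 124638. Of 15 prolactin signalling genes Wnt4 (-4.17) was the 1 that lay below, a smaller share than among all genes, with none above (median, -1.26). Of 10 lactose and ion genes, Aqp5 (-11.49), Slc34a2 (-5.57) and Slc7a5 (-2.98) lay below and Pgm1 (1.24) above. Of 4 casein neighbours Smr3a (-3.89), at 0 in all 3, lay below, and of 2 butyrophilin genes Btnl9 (7.40) lay above.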

How the data were processed

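RNA of 41 tumors was sequenced with paired reads after a poly(A) library protocol. Per the submitters' processing notes, reads were handled with STAR 2.7.6a, Salmon 1.4.0, Picard 2.22.4 and SAMtools on mm10. The deposited values are signal, Salmon gene counts that the authors scaled to a fixed upper quartile. Of nonzero values, 77.9 to 80.5% lay within 0.1 of a whole read, so reads were not recovered and no count model was used.

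Genes with a mean of at least 10 were tested with limma 3.58.1 (R 4.3.3) on log2(value + 1), without covariates, and p was adjusted by Benjamini-Hochberg over all genes tested. The fit was checked on simulated data. Members also had a two-sided permutation test with 100000 resamples. Groups were the genotypes in the labels, and the claudin-low class was described without a test. Replicate status beyond separate tumors is not given, so p measures the spread between these tumors, which may share a lineage. Alternatives were other pseudocounts, filters and scalings, other sets of tumors and leaving tumors out. Alternatives leaving out p53null-5329, p53null-7435, PLK2null-7763 or each tumor of a fit were chosen after seeing the data.

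Named genes were the 10 members, from each surrounding list up to 4 genes by adjusted p or by size of the claudin-low difference, and the 5 most like Csn3 and Elf5. The members and lists were chosen with earlier results of these data known. Levels between genes were compared per kilobase, with median coding transcript lengths from GENCODE vM21.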

Additional observations from a re-analysis of the deposited data

How the results depend on the processing

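Over all 41 tumors, 0 of the 10 genes passed under 12 of 14 alternatives, 1 of which was the permutation test and the others limma fits. In limma 1 gene passed without the 4 claudin-low tumors (Csn3) or without p53null-5329 and p53null-7435 (Wap, 1.82, adjusted p = 0.0252 in limma). In that last fit, and outside the claudin-low class without p53null-5329, Wap reached the mean of 10 only through the Plk2-null tumors. The surrounding lists gave 11 calls of 79 genes (39.5% of all genes passed) and 17 of 79 without the 4 claudin-low tumors (42.4% of all genes). They gave 1 call with the 7 Plk2-null tumors that carry primary tumor numbers (17.3% of all genes). Outside the claudin-low class the count of 1 became 4 without p53null-5329, 0 without p53null-7435, 3 without both, 0 with these 7 tumors, 0 by permutation test after adjustment (2 before it, Csn3 and Prlr), and 0 to 4 when each tumor was left out in turn. Differences that changed sign, all of them uncalled in both fits, were over all tumors Wap with pseudocount 10 (-0.0064), Lalba with pseudocount 10 (-0.0945), quantile normalization (-0.0998), TMM (-0.10), these 7 tumors (-0.40) or no claudin-low tumors (-0.31), Glycam1 without p53null-5329 (0.20) or without both (0.62), Btn1a1 with these 7 tumors (0.0893), and Elf5 with these 7 tumors (0.42) or without both (0.0201). Outside the claudin-low class they were, without p53null-5329 and without both, Lalba (0.52 and 0.64), Glycam1 (0.56 and 1.03) and Btn1a1 (0.45 and 0.58), and Elf5 without both (0.0158). The cause of these changes was not tested beyond the tumors left out. In the claudin-low description 7 genes lay below under all 8 alternatives, and the difference of Lalba, whose groups overlapped, was -0.0856 with pseudocount 10 and -0.19 to 0.44 when 1 of the 3 tumors was left out. Values of genes at or below the floor, such as Wap, Glycam1 and Csn1s2a in many tumors, are limited by depth. No paired analysis was possible because the labels give no number that pairs tumors of the genotypes.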
